A study of Mus musculus with 2 samples.

Results

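The 9 genes described here encode the constant regions of the mouse immunoglobulin heavy chains (Ighm, Ighd, Ighg1, Ighg2b, Ighg2c, Ighg3 and Igha), the constant region of the kappa light chain (Igkc) and the J chain (Jchain). They were taken by name, and all 9 of 9 were found among the 27842 genes listed in the 2 deposited tables together. In the library of diabetic mice, 10 plasma cells carried Ighg1 as their heavy chain and no control plasma cell did, a larger share of the plasma cells was of the IgG classes, and Ighm over the whole library was 4.07-fold lower than in the control library. In both libraries the Igha plasma cells had a higher median share of J chain message than the IgG and the Ighm plasma cells.

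A B cell first joins its rearranged variable region to the mu constant gene Ighm, and a mature naive B cell also makes delta chain, Ighd, from the same transcript by splicing. After activation, class switch recombination replaces mu with a gamma, epsilon or alpha constant gene, so that a switched cell usually transcribes a single heavy chain class. Plasma cells, many of which live for long periods in bone marrow, secrete the finished antibody, and J chain is the small protein that links the monomers of polymeric IgA and IgM.

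Single-cell RNA sequencing was carried out on cells freed from femurs and tibias of C57/BL6 mice by collagenase I and dispase II digestion, with lysis of red blood cells and with the Singleron GEXSCOPE kit. Streptozotocin, which kills pancreatic beta cells, had been given for the T1D library, whose label states high blood sugar. Sodium citrate solution had been given for the control library, whose label states normal blood sugar. Age, sex and the number of mice per library are not stated in the labels, and no genotype beyond the strain is named.

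With 1 library per group there was no replicate, so no test of a condition was possible, and the intervals below are 95% intervals that cover counting error only. A total of 15579 T1D cells and 12803 control cells were kept, with medians of 2757 counts per T1D cell and 3633 counts per control cell. The libraries shared 253 cell barcodes, and these held 0.522% of the 9 genes' counts in T1D and 0.473% in control. Cell classes came from clusters built without any immunoglobulin gene or Jchain, and doublets were not called or removed. The plasma cell cluster, 85 T1D and 67 control cells, was at least 2-fold above all other cells for 14 of 14 plasma cell markers. Mzb1, a chaperone of antibody assembly, had 909 CPM (a gene's counts scaled to the same total in every group of cells) in T1D plasma cells and 981 CPM in control plasma cells, against 0.326 CPM in T1D mature neutrophils and 1.82 CPM in control mature neutrophils. Sdc1, the plasma cell surface proteoglycan CD138, had 123 CPM in T1D plasma cells and 168 CPM in control plasma cells, a ratio of 0.732 (0.499 to 1.06). It was detected in 37.6% of the T1D and 62.7% of the control plasma cells. These shares were not matched for depth, and the median plasma cell had 4171 counts in T1D and 6787 in control.

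The heavy chain genes are similar in sequence, which bears on how reads can be assigned to them. The ends of the coding sequences of 2 of them are shown because they carry the site of J chain attachment. They are the last 60 coding bases of the secreted form, stop codon included, taken 5′ to 3′ along the transcript from GENCODE M21 (GRCm38), and the capitals mark the codon of the penultimate cysteine, through which the J chain is bound.
Ighm: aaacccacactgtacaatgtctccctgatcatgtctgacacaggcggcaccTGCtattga
Igha: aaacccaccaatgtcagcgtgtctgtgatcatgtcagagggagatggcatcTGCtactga
The mu and alpha ends were the same at 41 of 60 bases. The corresponding ends of the 4 IgG genes, which lack that tail, are shown because these genes are the most alike, and capitals mark the 26 positions at which the 4 are not all the same.
Ighg1: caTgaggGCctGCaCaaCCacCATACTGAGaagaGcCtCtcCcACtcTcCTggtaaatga
Ighg2b: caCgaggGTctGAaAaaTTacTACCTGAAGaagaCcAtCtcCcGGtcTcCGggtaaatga
Ighg2c: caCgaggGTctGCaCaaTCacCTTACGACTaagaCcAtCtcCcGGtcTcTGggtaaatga
Ighg3: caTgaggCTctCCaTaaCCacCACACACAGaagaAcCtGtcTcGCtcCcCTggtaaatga
Over the aligned coding bases, Ighg2b and Ighg2c were 86.3% identical, and 36 of the 1055 windows of 60 bases in Ighg2b occurred unchanged in Ighg2c. No window of that length was shared by any other pair of the 4 genes, whose identities ran between 76.2% and 78.5%. Counts of Ighg2b and Ighg2c are therefore the least certain of the set, since how reads with several possible origins were counted is not given in the sources used here.

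The first comparison gave each plasma cell its dominant isotype, the heavy chain gene with at least 50% of at least 10 heavy chain counts. A call was reached for 84 of 85 T1D plasma cells and 67 of 67 control plasma cells. The calls were rarely mixed. The dominant gene held at least 99% of the heavy chain counts in 78 T1D cells and 65 control cells. The least pure T1D cell was 86.6% Ighg2c, with Ighg2b as its second gene, and the least pure control cell was 98.4% Igha. Cells called for another gene seldom held any Igha, with 4 of 37 such T1D cells and 2 of 19 such control cells having an Igha count, and at most 9 counts in a T1D cell and 1 in a control cell.

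Igha, the alpha chain of the mucosal antibody class, was the most frequent isotype in both libraries. It was the call in 47 of 84 T1D plasma cells, 56.0% (44.7% to 66.8%), and in 48 of 67 control plasma cells, 71.6% (59.3% to 82.0%). The 4 IgG genes together, which encode the gamma chains of serum IgG, were the call in 29 T1D cells, 34.5% (24.5% to 45.7%), and in 8 control cells, 11.9% (5.3% to 22.2%). The IgG intervals of the 2 libraries did not overlap, while those of Igha did. Picking cells by plasma cell markers instead, whatever their cluster, took 79 T1D and 215 control cells. Of the called ones, 36 of 61 T1D cells (59.0%) and 38 of 117 control cells (32.5%) were Igha, so the order of the libraries turned. Of those 117 control cells 69 were Ighm. IgG was the call in 22 of the 61 T1D cells (36.1%) and 10 of the 117 control cells (8.55%), an order that did not turn. In the plasma cell cluster Ighm was the call in 7 T1D cells, 8.33% (3.42% to 16.4%), and in 11 control cells, 16.4% (8.49% to 27.5%), intervals that overlapped. Ighd was the call in 1 T1D cell and in 0 of 67 control cells, which allows a share of up to 4.48% (3 of 67).

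**Figure D1:**
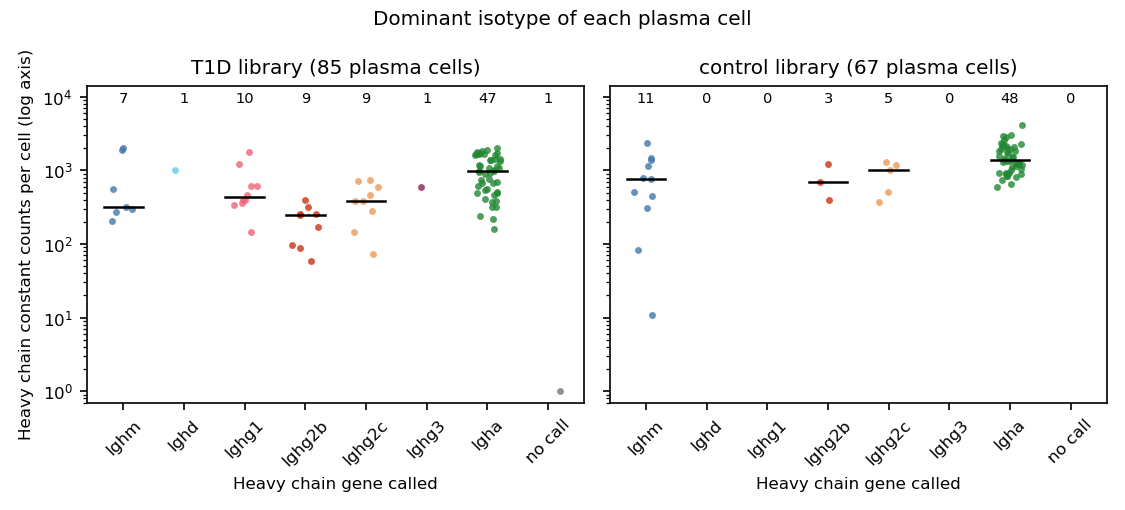
Heavy chain constant counts of each plasma cell (y axis, log scale) by the heavy chain gene called (x axis), T1D left and control right, with 1 point per cell, the number of cells along the top and a line at the median of groups of at least 3 cells. Igha leads with 47 T1D and 48 control cells, and the Ighg1 column holds 10 T1D cells and no control cell.

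Among the IgG genes the libraries were furthest apart for Ighg1, the gamma-1 chain. It was the call in 10 T1D cells, 11.9% (5.86% to 20.8%), and in 0 of 67 control cells, again with a limit of 4.48% and an interval up to 5.36%. The 10 T1D cells held 147, 335, 359, 394, 401, 460, 608, 614, 1238 and 1802 Ighg1 counts. Any Ighg1 count was found in 13 of 85 T1D plasma cells and in 0 of 67 control plasma cells. The T1D level of 16635 CPM was at least 2610-fold higher than 3 counts over all control plasma cells would give. The cell with the most held 28.3% of the Ighg1 counts of the T1D plasma cells, and the leading 3 together held 57.4%.

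Ighg2c, which takes the place of Ighg2a in the C57/BL6 background, was the call in 9 T1D cells and 5 control cells. Its summed level was 9718 CPM in T1D plasma cells and 9287 CPM in control plasma cells. Ighg2b, the gamma-2b chain, was the call in 9 T1D cells and 3 control cells, with 5063 CPM in T1D and 4988 CPM in control plasma cells. The levels were near parity, but the Ighg2b counts were spread over fewer called cells in control, which by itself raises the share of the highest cell. The highest T1D cell held 394 Ighg2b counts, 20.3% of those of the T1D plasma cells, while the highest control cell held 1219, or 51.9% of those of the control plasma cells. For both genes the direction of the small difference in level turns under TMM and DESeq2 scaling. Ighg3, the gamma-3 chain, was the call in a single T1D cell with 603 counts, which was 99.7% of all Ighg3 in T1D plasma cells, and in no control cell.

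The variable genes of the same cells were read to see whether cells of a class carried the same ones. A heavy chain variable gene was called in 42 of the 85 T1D plasma cells and 42 of the 67 control plasma cells, with 29 different names in each library. Of the 10 Ighg1 cells, 7 had such a call, all with different names, and 5 had a light chain variable call, again all different. Cells with the same isotype and the same heavy and light variable genes occurred once, as a pair of T1D Ighg2c cells with Ighv9-2 and Igkv15-103 whose barcodes differed at 18 of 24 bases, and in no control cells. Ighv1-82 was read in 5 T1D cells, of which 2 were Igha and the others Ighd, Ighg1 and Ighg2b.

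The Ighd cell in the T1D library stood alone. It held 1003 Ighd counts with 0 Ighm, 9 Igha, 700 Igkc and 527 Jchain counts, with Ighv1-82 as its variable gene. In the remaining T1D plasma cells 1 Ighd count was left, and the control plasma cells held 5 in all. The only T1D plasma cell without an isotype call had 1 heavy chain count beside 435 Igkc and 110 Jchain counts.

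Jchain, the joining peptide of IgA and IgM polymers, was detected in 84 of 85 T1D plasma cells and 67 of 67 control plasma cells. The T1D cell without it was an Ighm cell. As a share of a cell's counts, Jchain in Igha cells had a lowest value of 0.875%, a median of 7.56% and a highest value of 13.4% in T1D, against 1.43%, 7.69% and 11.9% in control. The medians of Igha cells thus lay close together in the 2 libraries. In IgG cells the lowest, median and highest shares were 0.746%, 2.70% and 8.16% in T1D, against 2.13%, 3.95% and 5.61% in control. In Ighm cells they were 0%, 4.02% and 6.14% in T1D, against 0.109%, 3.14% and 5.15% in control.

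In both libraries most Igha cells lay above the medians of the IgG and Ighm cells, with overlap. In T1D, 28 of 29 IgG cells and 7 of 7 Ighm cells had less Jchain than the median Igha cell, and in control 8 of 8 IgG cells and 11 of 11 Ighm cells did. The highest IgG cell was exceeded by 20 of 47 Igha cells in T1D and by 41 of 48 in control. The single Ighd cell of the T1D library had 11.4%. Per 100 heavy chain counts, the median Jchain count in T1D was 34.8 in Igha cells, 34.2 in IgG cells and 18.7 in Ighm cells. In control it was 31.4 in Igha cells, 43.7 in IgG cells and 23.5 in Ighm cells. By this ratio Igha cells were above Ighm cells in both libraries, while against IgG cells they were close in T1D and below in control. Heavy chain counts were themselves a larger share of the cell in Igha cells, with medians of 20.9% in T1D and 23.1% in control, than in IgG cells, with medians of 8.96% in T1D and 8.79% in control. These medians are descriptions of cells of 1 library each.

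**Figure D2:**
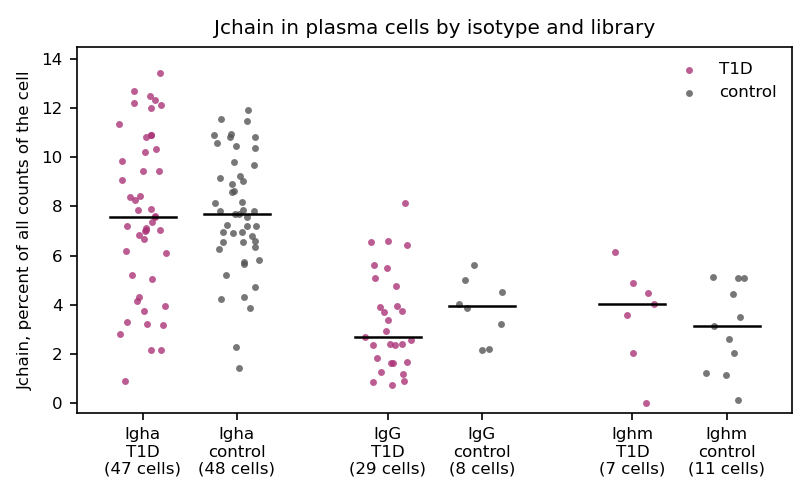
Jchain as a percent of all counts of each plasma cell (y axis), by isotype and library (x axis), with 1 point per cell and a line at each median. The Igha medians of 7.56% in T1D and 7.69% in control lie above those of the IgG cells, 2.70% in T1D and 3.95% in control, and the ranges overlap.

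Igkc, the kappa constant gene, outnumbered the lambda constant genes in 81 of 85 T1D plasma cells and 63 of 67 control plasma cells. The lambda cells numbered 4 in each library, which was 4.71% (1.30% to 11.6%) of T1D and 5.97% (1.65% to 14.6%) of control plasma cells. Of the 4 T1D lambda cells, 2 were IgG, 1 was Igha and 1 was Ighm, and of the 4 control lambda cells, 3 were Igha and 1 was IgG.

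The 9 genes made up 32.4% of all counts of the T1D plasma cells and 39.1% of those of the control plasma cells. The median plasma cell had 4171 counts in T1D and 6787 in control, and a median of 603 heavy chain counts in T1D and 1240 in control. Summed over the plasma cells and set against the total, Igha had 123253 CPM in T1D and 159308 CPM in control, which was 1.29-fold lower in T1D. Igkc had 91809 CPM in T1D and 133487 CPM in control, 1.45-fold lower in T1D. Ighm had 14619 CPM in T1D and 19636 CPM in control, 1.34-fold lower in T1D, and Jchain had 58992 CPM in T1D and 64170 CPM in control, 1.09-fold lower in T1D.

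These differences were read against a size rule. A gene passed it where its log2 ratio, with 5 CPM added, was 1 or more in either direction, where its level reached 50 CPM in at least 1 library, and where the counting interval of the ratio left out 1. In plasma cells 4.5% of the 4797 genes compared passed. As higher in T1D, 3 of the 9 members passed (Ighd, Ighg1 and Ighg3), where 2.94% of all genes did (141), and as lower none passed, where 1.56% did (75). The split of all genes depends on the scaling, being 108 higher and 108 lower with TMM, 83 higher and 142 lower with DESeq2 size factors, and 167 higher and 211 lower with immunoglobulin left out of the totals. TMM and DESeq2 scaling shift every log2 ratio in plasma cells by -0.12 and -0.23. Ighd, with 2623 CPM in T1D and 10.6 CPM in control, and Ighg3, with 1580 CPM in T1D and 36.1 CPM in control, each rest on 1 T1D cell. Without the cell of each library that held the most, their log2 ratios were -0.83 and -0.97, and Ighg1 alone still passed. The median log2 ratio of the 9 genes was 0.02, and that of all genes compared was 0.09.

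Over all kept cells 0.532% of the 18237 genes compared passed. Of the 9 members, 1 passed as higher in T1D, where 0.143% of all genes did (26), and 1 passed as lower, where 0.389% did (71). With TMM scaling 34 genes were higher and 45 lower, and with DESeq2 size factors 31 were higher and 53 lower. These scalings shift every log2 ratio up by 0.13 and 0.11. The higher one was Ighg1, with 7368 counts or 143 CPM in T1D against 2 counts or 0.0349 CPM in control, a ratio of 4084 with a counting interval of 1130 to 33732. The lower one was Ighm, with 11547 counts or 223 CPM in T1D against 52102 counts or 909 CPM in control, a ratio of 0.246 (0.241 to 0.251). In such sums, fewer cells of a type and less message per cell cannot be told apart.

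The other members moved less. Igkc had 782 CPM in T1D and 1387 CPM in control, 1.77-fold lower in T1D, and Igha had 1004 CPM in T1D and 1350 CPM in control, 1.34-fold lower in T1D. Jchain had 479 CPM in T1D and 549 CPM in control, and Ighd had 49.9 CPM in T1D and 58.2 CPM in control. Ighg2c, with 86.5 CPM in T1D and 89.2 CPM in control, and Ighg2b, with 42.5 CPM in T1D and 47.2 CPM in control, were near parity and turn direction under other settings. Ighg3 had 12.4 CPM in T1D and 0.541 CPM in control, a ratio of 23.0 (16.0 to 34.1), but 603 of its 643 T1D counts were those of the single plasma cell. The median log2 ratio was -0.20 over the 9 genes and -0.03 over all genes compared.

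**Figure D3:**
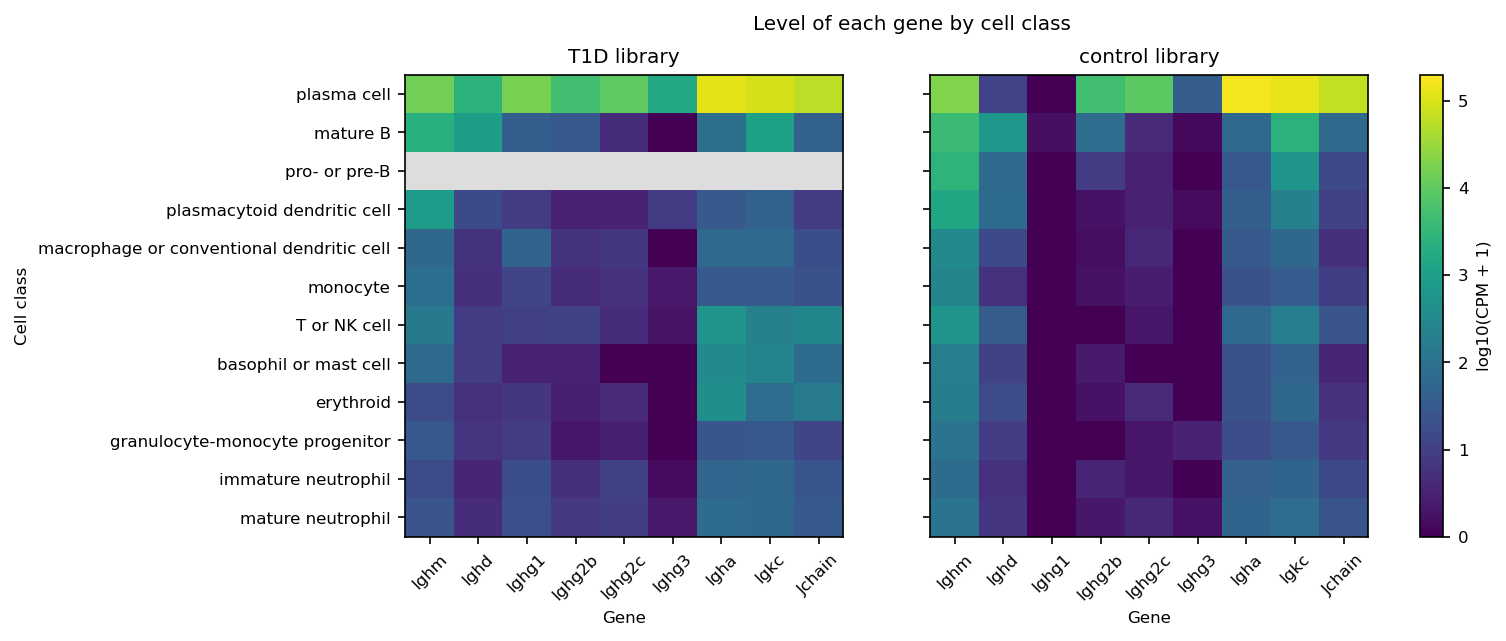
Level of each of the 9 genes (x axis) in each named cell class of at least 50 cells (y axis), T1D left and control right, with colour for log10 of CPM with 1 added and grey for no cells. Igha, Igkc and Jchain are brightest in plasma cells in both libraries, Ighm is also bright in B and plasmacytoid dendritic cells, and the Ighg1 column has counts in every named T1D class shown and, in control, in mature B cells alone of those shown.

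The B cells gave the background to the Ighm difference. Cells of the pro-B and pre-B clusters, marked by surrogate light chain and recombination genes such as Vpreb1, Igll1 and Rag1, numbered 0 in T1D and 1195 in control, where they held 28.7% of all control Ighm. A cluster led by Ms4a1 and Tnfrsf13c, named mature B from 14 of 15 markers, held 0 T1D and 493 control cells. It also had 6 of 13 pro- or pre-B markers, and Vpreb3 was among its leading genes. It had 6558 CPM of Ighm and 0.0508 Ighd counts per Ighm count, against 0.0227 in each of the pro- or pre-B clusters. In the control cells of the other mature B clusters that ratio was 0.384 and 0.336. By this ratio the cluster was nearer to the pro- or pre-B clusters, but by Igkc it was not. Igkc was at 3311 CPM in this cluster, against 361 and 973 CPM in the pro- or pre-B clusters. In the control cells of the other mature B clusters Igkc was at 1259 and 3743 CPM. The part of these cell numbers in the library sum was not tested.

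The 2 mature B clusters with cells of both libraries held 535 T1D and 585 control cells. Ighd came first among their leading genes, which included Fcer2a and Bank1. In these cells the mu and delta genes were nearly level between the libraries. Ighm had 2294 CPM in T1D and 2476 CPM in control, a ratio of 0.926 (0.886 to 0.969), and its direction turns when ribosomal RNA is left out of the total. Ighd had 909 CPM in T1D and 889 CPM in control, a ratio of 1.02 (0.950 to 1.10), which turns under TMM scaling. Ighd per Ighm count was 0.344 in T1D and 0.384 in control in the first of these clusters, and 0.432 in T1D and 0.336 in control in the second, so the direction differed between the clusters. Igkc had 1097 CPM in T1D and 1979 CPM in control, 1.80-fold lower in T1D, and it was lower in both clusters, 2.01-fold in the first and 1.95-fold in the second.

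In these clusters 0.538% of the 9473 genes compared passed the size rule. Of the 8 members with at least 10 counts, 2 passed as lower in T1D, where 0.422% of all genes did (40), and none passed as higher, where 0.116% did (11). When ribosomal RNA did not enter the totals, 58 genes were higher and 50 lower. Ighg2b had 27.7 CPM in T1D and 123 CPM in control, and Jchain had 43.0 CPM in T1D and 99.9 CPM in control. Both rest on 1 control cell with 227 Ighg2b, 280 Igkc and 169 Jchain counts, in which 9 of 14 plasma cell markers and 11 of 15 mature B markers were detected. Without the highest cell of each library the log2 ratios were 0.90 for Ighg2b and 1.2 for Jchain, and no member passed. Ighg1 had 53 counts in the T1D cells and 0 in the control cells, at least 25.1-fold higher in T1D than 3 counts in the control cells would give, but under 50 CPM. It passed as higher when ribosomal RNA did not enter the totals or when the minimum was 10 CPM, which made 3 members past the rule.

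Isotype calls in mature B cells were mostly Ighm. Of the cells with at least 10 heavy chain counts, Ighm was the call in 161 of 191 T1D cells, 84.3% (78.3% to 89.1%), and in 685 of 716 control cells, 95.7% (93.9% to 97.0%). Ighd was the call in 25 T1D cells, 13.1% (8.65% to 18.7%), and in 27 control cells, 3.77% (2.5% to 5.44%). The control figure includes the cluster without T1D cells. In T1D, 3 cells were called Igha, 1 Ighg1 and 1 Ighg2b, against 3 Igha and 1 Ighg2b in control.

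The last comparison asked how much of each gene lay outside the B and plasma cell clusters, where these genes are mostly not expressed. Over all 9 genes the outside share was 10.6% of T1D counts (15528 of 145850) and 9.66% of control counts (24304 of 251591). The order of the genes differed between the libraries. For Igha it was 8.87% in T1D and 2.61% in control, and for Jchain 8.48% in T1D and 3.11% in control. For Igkc it was 9.27% in T1D and 6.62% in control. Ighm had one of the larger shares in both, 24.2% in T1D and 27.7% in control.

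Among the remaining genes, Ighd had 12.7% outside in T1D and 24.4% in control. Ighg2c had 16.7% in T1D and 14.0% in control, and Ighg2b had 10.1% in T1D and 2.48% in control. For Ighg1 the share was 12.9% of the T1D counts, 947 in number, and 0 of the 2 control counts. For Ighg3 it was 5.91% in T1D and 41.9% in control, where it amounts to 13 of 31 counts.

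**Figure D4:**
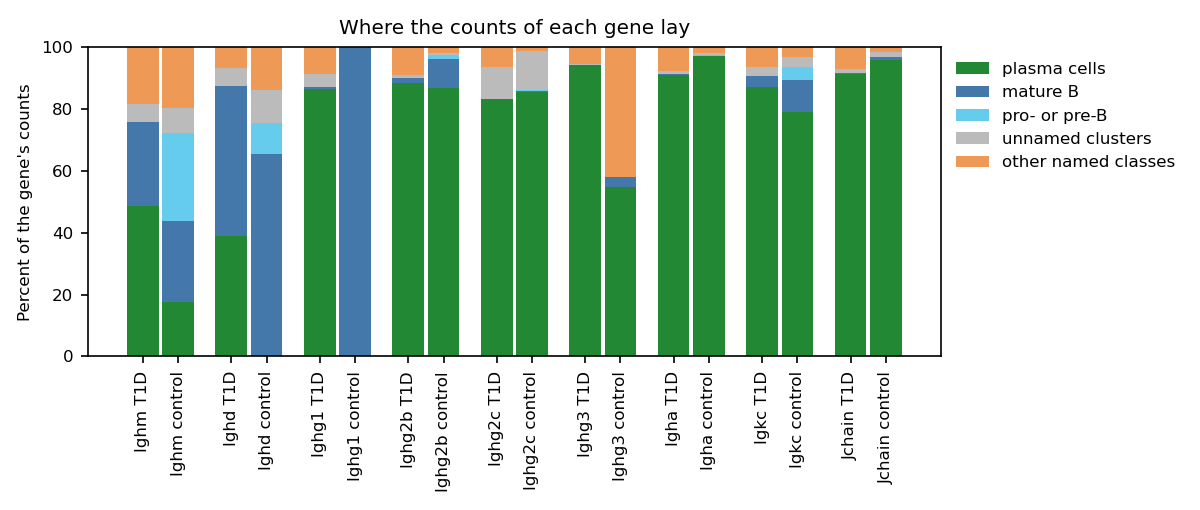
Percent of each gene's counts in a library (y axis) held by plasma cells, mature B cells, pro- or pre-B cells, unnamed clusters and other named classes, T1D left of control for each gene (x axis). Plasma cells hold 90.9% of T1D and 96.9% of control Igha, while 24.2% of T1D and 27.7% of control Ighm lies in the unnamed and other classes together, and the control Ighg1 bar stands for 2 counts.

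A few cells carried much of the outside signal. Cells outside the B and plasma clusters with at least 50 heavy chain counts numbered 13 in T1D and 4 in control, and they held 28.7% of the outside heavy chain counts in T1D and 6.46% in control. The highest T1D cell lay in the T or NK cell cluster and held 1059 Igha, 293 Igkc and 528 Jchain counts, with 9 of 14 plasma cell markers detected. The highest control cell, in an unnamed cluster whose leading genes include the osteoclast genes Ctsk and Acp5 and the B cell genes Cd79a and Ms4a1, held 641 heavy chain counts, 99.4% of them Ighg2c, with 1113 Igkc and 270 Jchain counts and 8 of 14 markers detected. That cluster had 11 of 15 mature B markers beside 8 of 9 monocyte markers, and held 438 heavy chain counts in T1D and 3825 in control, all counted as outside. Without these 13 T1D and 4 control cells the outside share of all 9 genes was 7.43% in T1D and 8.62% in control, so the order of the libraries turned.

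In the remaining outside cells the mixture of heavy chain genes differed between the libraries. Ighm made up 40.5% of their heavy chain counts in T1D and 84.8% in control, Igha 36.3% in T1D and 9.50% in control, and Ighg1 10.4% in T1D and 0% in control. Mature neutrophils, which do not make antibody, differed in the same directions. Of their heavy chain counts, Igha made up 53.3% in T1D and 29.9% in control, Ighm 18.0% in T1D and 63.9% in control, and Ighg1 13.9% in T1D and 0% in control. Most of these neutrophils fell in different clusters in the 2 libraries, with 1884 and 1759 of 3871 T1D cells in clusters led by Prok2 and Stfa2 and 1814 of 2071 control cells in a cluster led by Clec4d. Ighg1 had a count in 11 of 11 named T1D classes of at least 50 cells, and in those other than plasma cells its level ran between 2.43 and 47.7 CPM. The highest, in macrophages or conventional dendritic cells, was 38 counts, of which 36 were those of 1 cell. The lowest, in basophils or mast cells, was 1 count, under the 7.29 CPM that 3 counts would give. In control Ighg1 had a count in 1 of 12 such classes. Of the unnamed T1D clusters, the one led by Prg2 and Epx had 262 Ighg1 counts in 633 cells, or 211 CPM, of which 159 counts were those of 1 cell, and the one led by Ctsk and Nrp2 had 0 Ighg1 counts in 60 cells.

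**Figure D5:**
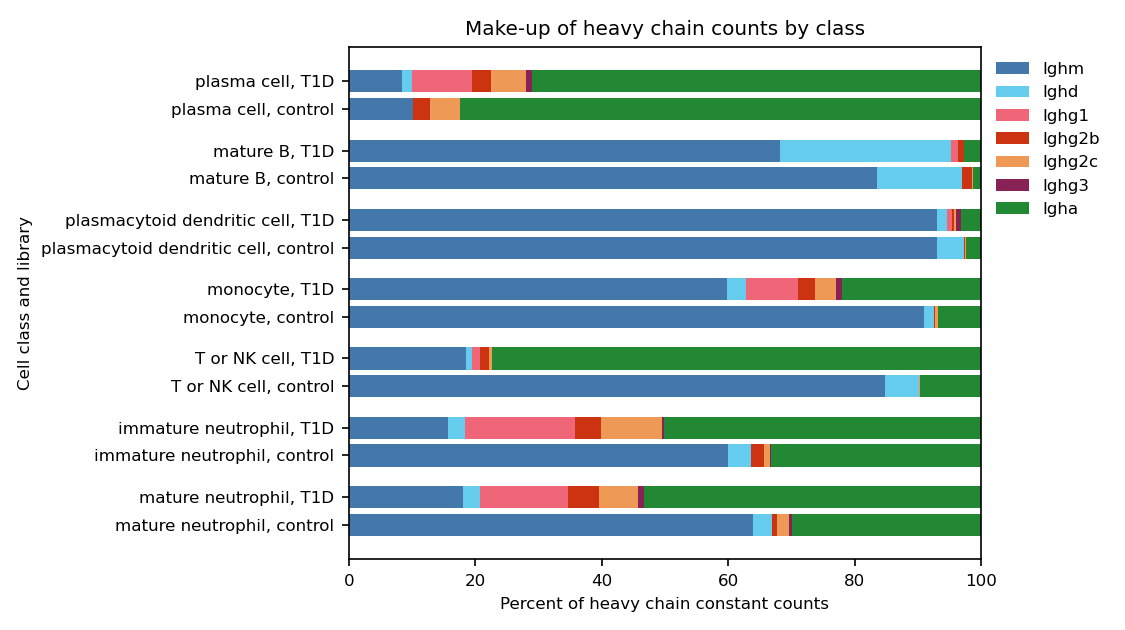
Percent of heavy chain constant counts from each of the 7 heavy chain genes (x axis, stacked) by cell class (y axis), T1D above control. In mature neutrophils Igha is 53.3% of T1D and 29.9% of control heavy chain counts, and in plasmacytoid dendritic cells Ighm is 93.1% of T1D and 93.0% of control heavy chain counts.

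Levels in mature neutrophils were taken as the size of this background, although some other named classes were higher for Ighm. Ighm was at 24.2 CPM in T1D and 107 CPM in control neutrophils, and Igha at 71.8 CPM in T1D and 50.1 CPM in control neutrophils. Igkc was at 62.0 CPM in T1D and 75.9 CPM in control neutrophils. Set against the plasma cells of the same library, the neutrophil level of Igha was 0.0582% in T1D and 0.0315% in control. Levels at or below these in other classes cannot be read as expression there.

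Plasmacytoid dendritic cells, the interferon-producing cells that are known to transcribe the mu gene without making antibody, stood above mature neutrophils for Ighm. The 98 T1D and 497 control cells had 852 CPM in T1D and 1479 CPM in control, and Ighm was 93.1% of their heavy chain counts in T1D and 93.0% in control. At 1000 counts per cell, Ighm was detected in 56.1% of these T1D cells and 71.8% of these control cells, against 1.99% of T1D and 9.66% of control mature neutrophils. There were 19.5 Ighm counts per Igkc count (12.2 to 33.3) in the T1D cells and 7.32 (6.64 to 8.07) in the control cells, against 0.391 in T1D and 1.41 in control mature neutrophils. Monocytes had 2.71 in T1D and 7.74 in control. In control the interval of the monocytes, 6.91 to 8.69, overlapped that of the plasmacytoid dendritic cells. Other named classes also lay above mature neutrophils for Ighm. T or NK cells had 137 CPM in T1D and 568 CPM in control, and monocytes 84.1 CPM in T1D and 263 CPM in control. Macrophages or conventional dendritic cells had 61.5 CPM in T1D and 345 CPM in control. In control the Ighm share of heavy chain counts was also high in monocytes, 90.9%, and in macrophages or conventional dendritic cells, 87.8%. In T1D it was 59.8% in monocytes and 32.2% in macrophages or conventional dendritic cells.

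The wider machinery of the plasma cell was read from lists of genes. Of 15 genes of antibody secretion and protein folding, none was higher in T1D plasma cells by the size rule, where 2.94% of all genes were. Lower were 3, where 1.56% of all genes were. The list median was -0.14 on the log2 scale, where the median of all genes was 0.09. Hspa5, the endoplasmic reticulum chaperone BiP that binds free heavy chains, had 967 CPM in T1D and 2286 CPM in control plasma cells, 2.36-fold lower in T1D. Its co-chaperone Dnajb9 had 28.7 CPM in T1D and 155 CPM in control, and Derl3, a component of the degradation pathway for misfolded proteins, had 91.4 CPM in T1D and 200 CPM in control. Xbp1, the transcription factor of the secretory programme, had 1369 CPM in T1D and 1247 CPM in control and did not pass. With TMM or DESeq2 scaling 4 genes of the list were lower, Creld2 being the addition.

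Of 16 genes of plasma cell identity and survival, 15 had enough counts, with a median of 0.13. As higher 1 passed, where 2.94% of all genes did, and as lower 1 passed, where 1.56% did. Pou2af1, a coactivator of immunoglobulin promoters, was higher at 410 CPM in T1D and 181 CPM in control, and Tnfrsf17, the survival receptor BCMA, was lower at 28.7 CPM in T1D and 68.0 CPM in control. Of the other constant genes, Iglc1 was lower at 1413 CPM in T1D and 4522 CPM in control, Iglc2 was higher at 2827 CPM in T1D and 1209 CPM in control, and Iglc3 was higher at 653 CPM in T1D and 187 CPM in control. In T1D, 845 of the 1082 Iglc2 counts were those of 1 lambda cell. Of the 2129 control Iglc1 counts, 1017 were those of 1 lambda cell, and of the 250 T1D Iglc3 counts, 122 were. With DESeq2 size factors Pou2af1 and Iglc2 no longer passed, and Ccr10, a chemokine receptor of IgA plasma cells, passed as lower. Ighe, the epsilon chain of IgE, had 0 counts in T1D and 1 in control over all kept cells.

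Of 12 genes of class switching and the germinal centre, 1 had at least 10 counts in plasma cells and it did not pass. Of 16 Fc and immunoglobulin receptor genes 4 had enough counts, and of 10 plasma cell niche signals 2 did, and none of these passed. Over all kept cells the lists held 6 genes that passed, all lower in T1D and none higher: Irf4, Pou2af1, Hspa5, Herpud1, Iglc1 and Fcrla, a B cell protein related to Fc receptors. They were 2 of 15 secretion genes, 2 of 16 identity genes, 1 of 3 other constant genes and 1 of 15 receptor genes. Of all genes compared, 0.389% passed as lower and 0.143% as higher. Pou2af1, lower in this sum, was higher in T1D within plasma cells. Fewer cells of a type and less message per cell cannot be told apart in such sums. In the shared mature B clusters Hspa5, with 197 CPM in T1D and 410 CPM in control, and Fcrla, with 58.2 CPM in T1D and 156 CPM in control, passed as lower. No gene of the lists passed as higher there. Of all genes compared in those clusters, 0.422% passed as lower and 0.116% as higher.

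The genes with the most alike pattern were sought over 31 profiles, each a cell class of at least 50 cells in 1 library, among 5808 genes, as a description that shares libraries and depth between points. Jchain was the closest to Igha, with a Pearson r of 0.97, followed by Derl3 at 0.88. Igkc was closest to the lambda gene Iglc1 at 0.95. Ighm was closest to the transcription factor gene Irf4 at 0.95, and Ighd to Pou2af1 at 0.87. Plasma cells held 88 of the 341 Irf4 counts in T1D and 99 of the 3340 in control. Each of the IgG genes was closest to a kappa variable gene, such as Igkv4-61 for Ighg1 at 0.89 and Igkv1-110 for Ighg2b at 0.98. These are sums over classes and do not show which chains were paired in a cell. Among the plasma cells, Igkv4-61 was called in an Igha cell and in no Ighg1 cell. Igkv1-110 was called in Igha, Ighg1 and Ighm cells and in no Ighg2b cell.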

How the data were processed

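Bone marrow cells of 1 T1D and 1 control library were profiled with the Singleron GEXSCOPE kit. The authors deposited whole-number counts per gene and cell barcode, and the submitters' processing notes name bcl2fastq 2.19, featureCounts and the mm9 build. The aligner, the strand setting, the collapse of unique molecular identifiers and the handling of reads with several possible origins were not given in the sources used here. The mm9 build and the GRCm38 build of the printed sequences differ, so no coordinates are given.

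Barcodes under 200 genes or over 20% mitochondrial counts were removed, which left 15579 of 15771 T1D and 12803 of 12880 control barcodes, with 51680532 T1D and 57296558 control counts. Clustering used scanpy 1.11.5 on 2000 variable genes per library without immunoglobulin genes or Jchain, scaled to unit variance, with 30 principal components, 15 neighbours and Leiden resolution 1 (best of 10 starts), and gave 27 clusters. Clusters were named from 16 marker sets, with at least 3 markers at 2-fold and 50 CPM, and stayed unnamed where a second lineage reached 0.75 of the first. One cluster with more mature B than pro- or pre-B markers was called pro- or pre-B from its leading genes Rag1, Akap12 and Vpreb3. The scaling and these naming rules were chosen after the clusters were seen. Classes rest on these rebuilt names. Doublets were not called or removed.

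Counts were summed per library and class. Poisson, Clopper-Pearson and conditional binomial intervals were exact and cover counting error only, and reads from the same molecule, if not collapsed, make them too narrow. The T1D over control log2 ratio had 5 CPM added, over genes with at least 10 counts in both libraries together. A count of 0 was given a limit of 3 counts. Variable genes needed at least 10 counts. The isotype calls and the size rule stand in the results, and calculations were tested on simulated data. Levels of different genes are not corrected for length except where a call per base was tried. TMM factors came from edgeR 4.0.16 and size factors from DESeq2 1.42.0 on the counts, as scalings and not as tests. All 9 members are named, with the 3 genes of highest correlation to each and the genes of 6 lists (other constant genes, secretion, identity and survival, class switching, niche signals, Fc receptors). The members and the lists were chosen with earlier results of these data known.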

Additional observations from a re-analysis of the deposited data

How the results depend on the processing

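With 1 library per group, nothing here separates the condition from the library, and depth limits the low genes: over all cells the control library was deeper per cell. No paired analysis was possible because each group has 1 library and no replicate numbers. Without scaling of genes the clustering gave no separate plasma cell cluster, so that alternative has no values. Leaving out the highest cells within B and plasma cells, leaving out outside cells of at least 50 heavy chain counts, the totals without immunoglobulin within classes and the per-base calls were added after the data were seen. Causes were not tested. At a minimum of 10 CPM, the genes past the size rule numbered 199 over all cells, 211 in mature B clusters and 475 in plasma cells. Without ribosomal RNA they numbered 108 in mature B clusters and 374 in plasma cells, and without immunoglobulin in the totals 378 in plasma cells. Without the highest cell of each library, members past the rule numbered 0 in mature B clusters, where Ighg2b turned to 0.90 and Jchain to 1.2 (log2), and 1 in plasma cells, where Ighd turned to -0.83 and Ighg3 to -0.97. With marker-picked cells, Igha was 32.5% of called control cells. The outside share of all 9 genes in T1D was 8.40% when constant genes entered the clustering, 10.47% at resolution 2, 10.46% from the start of lowest modularity, 25.1% with marker-picked cells, 8.27% without unnamed clusters, 9.22% without the highest outside cell and 7.43% without cells of at least 50 heavy chain counts. In control it was 8.65% with constant genes, 17.7% with marker-picked cells, 6.37% without unnamed clusters, 8.75% without the highest outside cell and 8.62% without the cells of at least 50. At 1000 counts per cell, 17.7% of T1D and 36.4% of control cells held a member count, against 32.8% of T1D and 59.5% of control cells at full depth. Of the other values, 75 for comparisons and 264 for single genes stayed within their counting interval, or for counts of genes within 1.5 times, and 137 for single genes moved further without turning a called direction.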
